A study of Mus musculus with 6 samples.

Results

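Fibroblast growth factors (FGFs) and their receptors were examined in primary mouse renal fibroblasts, cells that make the matrix of the kidney interstitium. The members were the 10 genes of a list of FGF genes found by symbol among the 34745 genes of the deposited table, comprising the ligand genes Fgf1, Fgf2, Fgf7, Fgf10, Fgf18 and Fgf21 and the receptor genes Fgfr1, Fgfr2, Fgfr3 and Fgfrl1. All fibroblasts were wild type (WT) and, after isolation, were cultured in a commercial fibroblast medium. The study's methods do not name the medium used during coculture. They name Balb/c mice for the animal work, with no separate strain or age given for the fibroblast donors. In 3 libraries the fibroblasts received no treatment (alone). In the other 3 they shared medium for 24 h with Th17 cells, helper T cells that make interleukin-17, seeded in an insert with 0.4-μm pores above them. The Th17 cells had been induced from CD4+ T cells with antibodies to CD3 and CD28, the cytokines IL-1β, IL-6 and IL-23, and an antibody to IFN-γ, and RNA was taken from the fibroblasts in the lower chamber alone. The comparison asked which fibroblast transcripts differ in the presence of Th17 cells. The sources used here do not state if replicate libraries were grown from different mice or cultures. Errors and p-values therefore measure library-to-library spread, which may be technical. Values after ± are SD over the 3 libraries of a group.

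FGFs are secreted signals that bind receptor tyrosine kinases on the cell surface together with heparan sulfate, a sulfated sugar chain of the matrix and the cell coat. The activated receptor signals through the adaptor Frs2 to Ras, the kinases Raf, Mek and Erk, and through phospholipase C gamma. Genes that Erk induces include its own inhibitors, such as the Sprouty proteins and the Dusp phosphatases. In the kidney and other organs, fibroblasts supply FGFs to epithelium and also respond to them with growth.

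Total counts ranged from 12050529 to 13209581 per library. Cocultured replicate 3 stood apart from the other cocultured libraries, with a chi-square per gene of 14.3 and 13.2 against replicates 1 and 2, compared with 8.07 between those and 6.07 to 6.97 among the lone libraries. A floor of 3 counts equalled 0.223 to 0.254 CPM (counts scaled to a common library size of 1000000) after scaling by the trimmed mean of M values (TMM). With the quasi-likelihood test of edgeR and p-values adjusted by Benjamini-Hochberg, 37.1% of 13088 genes had an adjusted p below 0.05, 17.1% higher and 20.0% lower with Th17 cells, and these shares are the background for the counts below. Fibroblast markers were abundant, with summed levels of 34118 to 36004 CPM alone and 14253 to 15954 CPM with Th17 cells, and of 10 markers tested 8 were lower and Dcn was higher. The T cell markers Cd3d, Cd5, Il17a, Il17f and Ccr6 had 0 counts in every library, and 8 of 12 T cell markers had at most 3 counts in any library. The T cell markers summed to 6.99 to 9.33 CPM alone and 5.03 to 6.03 CPM with Th17 cells, most of it from Lck and Trac. Summed markers of other cells were also low, and lower with Th17 cells. The summed level of 10 macrophage markers was 57.5 to 60.7 CPM alone and 19.9 to 21.2 CPM with Th17 cells, with 4 of 5 tested markers lower and Adgre1 at 0 counts in every cocultured library. For 8 epithelial markers the sums were 19.2 to 21.1 and 3.58 to 4.56 CPM, with 2 of 3 tested markers lower and Pax8 and Cdh16 at 1 count or fewer. For 8 endothelial markers they were 9.96 to 10.2 and 5.18 to 5.9 CPM, and Tie1 and Emcn were at 0. Of 3 endothelial markers tested Kdr was lower, at 5.55 ± 0.438 CPM alone and 0.127 ± 0.0416 CPM with Th17 cells, while Pecam1 (1.24 ± 0.523 and 1.32 ± 0.157 CPM) and Egfl7 (2.59 ± 0.506 and 2.93 ± 0.169 CPM) did not pass the test. Adgre1 and Kdr passed the filter on low counts only through the lone libraries, so both had to differ. Lrp2, 1 of the 2 lower epithelial markers, reached the limit of that filter in 3 lone libraries and 1 cocultured library. Its call is therefore no independent support for a decrease. The part of all these cell type markers in the values of the FGF genes was not tested. In such bulk samples, fewer cells of a type and less RNA per cell cannot be told apart.

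All 10 members had enough counts to be tested. With Th17 cells 5 were higher and 2 lower. The higher genes were 4 ligands, Fgf2, Fgf7, Fgf10 and Fgf18, and the decoy-like receptor Fgfrl1. The lower genes were the hormone-like ligand Fgf21 and the receptor Fgfr2. Fgf1, Fgfr1 and Fgfr3 did not pass the test. Fgf21 passed the filter on low counts only through the lone libraries, and a gene that does so had to differ. The share called among these 10 chosen genes was not tested against the background. With the study's further limit of a fold change above 2, which 11.6% of the genes tested passed (3.87% higher and 7.78% lower), Fgf2 and Fgf7 were higher and Fgf21 was lower. Fgf7 stood at that limit, and its log2 fold change was 0.98, under it, without lone replicate 3 or without cocultured replicate 1. The median log2 fold change of the members was 0.27, against 0.00 over all genes tested. In 6 members the groups were separate in CPM, against 50.4% of all genes tested.

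**Figure D1:**
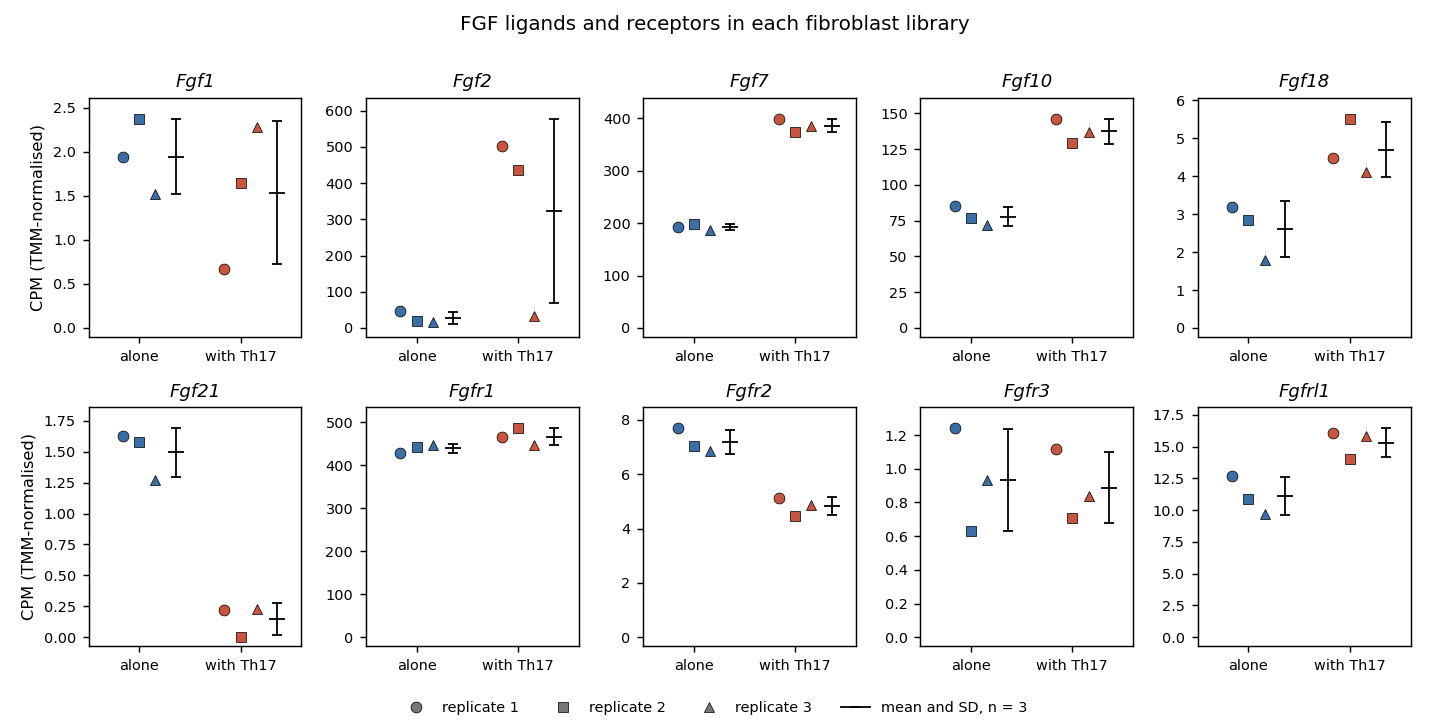
TMM-normalised CPM (y axis, linear, a separate scale in each panel) of each member in fibroblasts alone and with Th17 cells. Symbols are the 3 libraries of a group and bars the mean and SD. Fgf7, Fgf10, Fgf18, Fgf21, Fgfr2 and Fgfrl1 show no overlap between groups, whereas Fgf2 was high in 2 cocultured libraries (501 and 435 CPM) and at 32 CPM in the third.

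Upstream sequences of the ligands whose groups did not overlap are shown because these genes moved in opposite directions within the same comparison. RefSeq start sites of build GRCm38.p6 were listed for 8 of the 10 members. Each sequence holds the 250 bases before the start, 5′ to 3′ on the strand of the gene, and overlaps no annotated exon. The start listed for Fgf10 lies inside the span of that gene, so its window is not upstream of the whole gene. The windows are chr2:126034408-126034657 (plus strand), chr13:118714449-118714698 (plus), chr11:33147401-33147650 (minus) and chr7:45615491-45615740 (minus). Capitals mark matches on either strand to the AP-1 motif TGANTCA, the TATA box TATAAA, the GC box GGGCGG, the TEAD motif GGAATG and the NF-kB motif (GGG, any 2 bases, then TTTCC).
Fgf7: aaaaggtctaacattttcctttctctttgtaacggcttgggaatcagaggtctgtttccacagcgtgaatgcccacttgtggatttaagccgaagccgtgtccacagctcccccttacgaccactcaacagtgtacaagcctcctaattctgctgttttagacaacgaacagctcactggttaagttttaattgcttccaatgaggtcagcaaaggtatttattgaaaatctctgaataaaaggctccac
Fgf10: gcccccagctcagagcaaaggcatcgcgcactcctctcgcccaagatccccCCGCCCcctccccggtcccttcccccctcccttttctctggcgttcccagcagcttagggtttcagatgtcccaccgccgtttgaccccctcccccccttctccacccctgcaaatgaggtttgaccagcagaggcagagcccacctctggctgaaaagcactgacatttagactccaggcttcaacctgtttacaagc
Fgf18: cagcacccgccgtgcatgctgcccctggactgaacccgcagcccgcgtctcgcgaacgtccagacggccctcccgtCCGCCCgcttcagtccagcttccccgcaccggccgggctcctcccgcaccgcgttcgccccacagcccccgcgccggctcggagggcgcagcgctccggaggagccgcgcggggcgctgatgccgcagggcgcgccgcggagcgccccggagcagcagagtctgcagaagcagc
Fgf21: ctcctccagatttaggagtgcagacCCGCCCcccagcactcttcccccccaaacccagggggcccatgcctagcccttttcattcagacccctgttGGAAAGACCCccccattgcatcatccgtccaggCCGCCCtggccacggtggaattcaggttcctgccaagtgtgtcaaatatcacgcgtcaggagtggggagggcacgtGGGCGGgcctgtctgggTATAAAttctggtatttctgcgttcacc
Fgf7, Fgf10 and Fgf18 rose, and Fgf21 fell. The opposite direction rests on Fgf21 alone, which passed the filter on low counts only through the lone libraries and so had to differ. The Fgf7 window held none of these motifs and had a GC content of 43.6%, the lowest of the 4. The windows of Fgf10 and Fgf18 each held 1 GC box, at 199 and 174 bases before the start. The Fgf21 window held a TATA box at 28 bases, an NF-kB motif at 154 bases and 3 GC boxes. Among 32841 upstream windows of the same length, 32.7% held a GC box, 12.4% a TATA box, 12.6% a TEAD motif, 6.75% an AP-1 motif and 1.41% an NF-kB motif. Such matches are letters only and describe no binding.

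Fgf7, also called keratinocyte growth factor, is made by mesenchymal cells and acts on epithelium through the IIIb form of Fgfr2. Fgf7 (ENSMUSG00000027208, chromosome 2, 126034658 to 126091185, plus strand, protein-coding) had 2473, 2499 and 2204 counts alone and 5353, 4740 and 5055 counts with Th17 cells. Every cocultured library lay above every lone library. Expression increased 2.01-fold, from 192 ± 5.54 to 385 ± 12.9 CPM, with an SE of 0.0573 on the log2 scale (edgeR adjusted p = 1.46e-06). It was the most abundant FGF ligand transcript in both groups.

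Fgf10, a close relative of Fgf7 that uses the same receptor form and directs branching of epithelial buds, moved in the same direction. Fgf10 (ENSMUSG00000021732, chromosome 13, 118669791 to 118792115, plus strand, protein-coding) had 1095, 969 and 847 counts alone and 1960, 1641 and 1795 counts after coculture. The groups were again separate. Its level rose from 77.8 ± 6.77 to 137 ± 8.43 CPM, a difference of 0.82 ± 0.0817 (SE) on the log2 scale (edgeR adjusted p = 5.95e-05). Fgf10 overlaps exons of Gm16263 on the opposite strand, a gene with 4 to 8 counts per library. The ratio of Fgf7 to Fgf10, both as FPKM (fragments per kilobase of gene length, scaled to the library total), was 2.06, 2.35 and 2.37 alone and 2.49, 2.63 and 2.56 with Th17 cells.

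Fgf18, a ligand known from cartilage and lung development, was expressed at a low level. Fgf18 (ENSMUSG00000057967, chromosome 11, 33117430 to 33147400, minus strand, protein-coding) had 41, 36 and 21 counts alone and 60, 70 and 54 counts with Th17 cells. The lowest cocultured library stood above the highest lone library by a small margin, 4.11 against 3.18 CPM. The mean rose from 2.6 ± 0.735 to 4.69 ± 0.723 CPM, a difference of 0.84 ± 0.248 (SE) on the log2 scale (edgeR adjusted p = 0.0256). This call was lost in 4 of the 6 fits that left out 1 library, namely lone replicate 2 or 3 or cocultured replicate 1 or 2, where the adjusted p was 0.0515, 0.0741, 0.051 and 0.0888.

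Fgf2, or basic FGF, is a strong mitogen of fibroblasts that leaves the cell without a signal peptide and is held by heparan sulfate. Fgf2 (ENSMUSG00000037225, chromosome 3, 37348346 to 37410108, plus strand, protein-coding) had 613, 237 and 198 counts in lone replicates 1, 2 and 3. With Th17 cells it had 6730, 5538 and 420 counts in replicates 1, 2 and 3. Cocultured replicates 1 and 2 were far above all other libraries, whereas cocultured replicate 3 lay within the range of the lone libraries, so the groups overlapped. Relative to the mean of the lone libraries, the cocultured libraries stood at 18.1, 15.7 and 1.15 times. The group means were 27.7 ± 17.3 CPM alone and 323 ± 254 CPM with Th17 cells. The fitted log2 fold change of 3.54 had an SE of 0.851 (edgeR adjusted p = 0.0101), the widest SE of the members. When edgeR estimated the prior spread robustly, a setting added after the libraries had been seen to differ, the same value had an adjusted p of 0.0977, so the call was lost. Without cocultured replicate 3 the log2 fold change was 4.08 (edgeR adjusted p = 0.00012), and without lone replicate 1 it was 4.18 (edgeR adjusted p = 0.0194).

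The spread of Fgf2 was unusual for these libraries. Its highest over its lowest cocultured CPM was 15.7, against a median of 1.17 over 9740 tested genes with a mean of at least 100 counts, and 3 of those genes, Fgf2 included, reached such a ratio. Among the lone libraries the ratio for Fgf2 was 2.84, which 55 genes reached, against a median of 1.12. The biological coefficient of variation was 62.9% for Fgf2 and 11.6% in common, and 27 of the 13088 genes tested had a higher dispersion. On the log2 scale, cocultured replicate 3 was lower than the mean of cocultured replicates 1 and 2 by a difference of −3.86, the most negative of the 9740 genes. Among the other 9 members this difference ranged from −0.26 to 1.04, with a median near 0.

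Genes around Fgf2 did not share that pattern. In 12 tested genes within 1000000 bases on either side, cocultured replicate 3 differed from replicates 1 and 2 by −0.49 to 0.74 on the log2 scale. Nudt6, which encodes a nudix hydrolase and lies on the opposite strand, shares 640 exon bases with Fgf2. Nudt6 had 32, 13 and 35 counts alone and 18, 34 and 24 counts with Th17 cells (log2 fold change −0.15, SE 0.408, edgeR adjusted p = 0.811). No source used here says if the counting used strand, so reads of the shared bases cannot be told apart. The counts of Nudt6 are open to the same doubt. The part of such reads in the counts of Fgf2 was not tested. Fgf2os, another gene of this locus, had 32, 23 and 26 counts alone and 54, 77 and 62 with Th17 cells (log2 fold change 1.18, SE 0.233, edgeR adjusted p = 0.00363), so its cocultured libraries lay closer together than those of Fgf2. The gene whose centred log2 CPM over the 6 libraries came closest to that of Fgf2 was Kpna1, at a root mean square distance of 1.13, with 2071, 1782 and 617 counts after coculture. It was followed by Csf2 (1.24) and Slc16a13 (1.29). These distances are large beside those for Fgf7, whose nearest genes were Ifngr2 (0.0366), Dlat (0.0467) and Cemip (0.0513).

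Fgf21, an endocrine FGF of metabolic stress that needs the co-receptor beta-klotho, changed in the opposite direction to the other called ligands. Fgf21 (ENSMUSG00000030827, chromosome 7, 45613907 to 45615490, minus strand, protein-coding) had 21, 20 and 15 counts alone and 3, 0 and 3 counts with Th17 cells. Every cocultured library was at or below the floor of 3 counts. From the summed counts, 56 against 6, the level was 9.82-fold lower with Th17 cells (95% exact counting interval 4.24 to 27.9, edgeR adjusted p = 0.00186). Because Fgf21 passed the filter on low counts only through the lone libraries, the interval and p-value are no independent support for a decrease. The genes closest to Fgf21 over the 6 libraries were C2 (0.256), Gm4951 (0.263) and Ifit2 (0.343). Beta-klotho itself, Klb, had at most 2 counts in any library.

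Fgf1, acidic FGF, which binds each of the FGF receptors, was near the detection limit. Fgf1 (ENSMUSG00000036585) had 25, 30 and 18 counts alone and 9, 21 and 30 with Th17 cells. The groups overlapped, with cocultured replicate 1 the lowest of all libraries (log2 fold change −0.35, SE 0.408, edgeR adjusted p = 0.543).

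Fgfr1, the main FGF receptor of mesenchymal cells, was the dominant receptor transcript. Fgfr1 (ENSMUSG00000031565, chromosome 8, 25513654 to 25575714, plus strand, protein-coding) had 5505, 5599 and 5300 counts alone and 6257, 6181 and 5876 counts with Th17 cells. The CPM values overlapped between groups, 428 to 448 alone and 447 to 486 with Th17 cells. The log2 fold change of 0.09 had an SE of 0.0562 (edgeR adjusted p = 0.271). It missed the threshold under all 15 alternatives.

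Fgfr2, whose epithelial form receives Fgf7 and Fgf10, was lower. Fgfr2 (ENSMUSG00000030849, chromosome 7, 130162451 to 133123350, minus strand, protein-coding) had 99, 89 and 81 counts alone and 69, 57 and 64 with Th17 cells. The groups were separate in CPM, at 7.19 ± 0.439 and 4.83 ± 0.329, and the log2 fold change of −0.57 had an SE of 0.149 (edgeR adjusted p = 0.0143). The adjusted p was 0.0525 with DESeq2 and 0.0543 without lone replicate 1, where the call was lost. Its exons overlap those of Ctbp2 on the same strand, a gene with 1037 to 1374 counts per library that did not pass the test, so reads could be split between them. Gene counts do not separate the epithelial from the mesenchymal form. The ratio of Fgfr1 to Fgfr2 in FPKM was 41.5, 47 and 48.9 alone and 67.7, 81 and 68.6 with Th17 cells.

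Fgfr3 (ENSMUSG00000054252), a receptor of cartilage and epithelium, had 16, 8 and 11 counts alone and 15, 9 and 11 with Th17 cells (log2 fold change −0.07, SE 0.379, edgeR adjusted p = 0.902). Lone and cocultured values overlapped. Fgfrl1, which binds FGFs but lacks the kinase domain, was modestly higher. Fgfrl1 (ENSMUSG00000008090, chromosome 5, 108692382 to 108706924, plus strand, protein-coding) had 164, 138 and 115 counts alone and 216, 178 and 207 with Th17 cells, with no overlap in CPM. Its level changed from 11.1 ± 1.52 to 15.3 ± 1.12 CPM, a difference of 0.46 ± 0.133 (SE) on the log2 scale (edgeR adjusted p = 0.0249). The call was lost without lone replicate 2, lone replicate 3 or cocultured replicate 1, with adjusted p of 0.0783, 0.0975 and 0.0661.

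**Figure D2:**
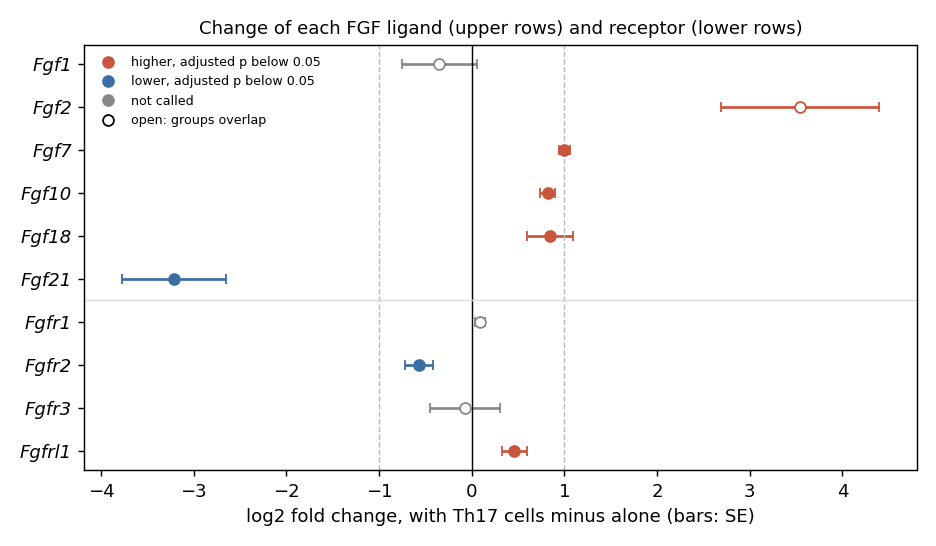
Log2 fold change of each member, with Th17 cells minus alone (x axis), with its SE as bars; red and blue mark genes higher or lower at an adjusted p below 0.05, grey the others, open points genes whose groups overlap, and dashed lines a fold change of 2. Fgf7 at about 1, Fgf10 (0.82) and Fgf18 (0.84) lie close together, while Fgf2 (3.54) has the widest bar and Fgf21 (−3.21) rests on 6 cocultured counts.

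Levels of different genes were compared as FPKM. Among ligands alone, Fgf7 stood first with 33.2 to 35 FPKM, followed by Fgf10 with 14 to 16.5. Fgf2 (1.89 to 5.35), Fgf18 (1.47 to 2.61) and Fgf21 (1.34 to 1.71) followed, and the ranges of neighbours among these overlapped. Fgf1 was last, with 0.137 to 0.213. With Th17 cells Fgf7 was first again, with 68.6 to 73.8 FPKM. Fgf2 covered 3.79 to 59 FPKM and so spanned the range of Fgf10 (26.1 to 29.7). Fgf18 came next at 3.56 to 4.7, a range that held the Fgf2 value of cocultured replicate 3 (3.79). Fgf21, listed at 0 in cocultured replicate 2, overlapped Fgf1. The receptors kept the order Fgfr1, Fgfrl1, Fgfr2 and Fgfr3 in both groups, with no overlap between neighbours. Fgfr1 had 24.1 ± 0.659 FPKM alone and 26.7 ± 0.931 with Th17 cells, and Fgfr3 had 0.0663 ± 0.0215 and 0.0657 ± 0.0156. The gene lengths behind the deposited FPKM ranged from 930 bases for Fgf21 to 17862 for Fgfr1, longer than the annotated coding transcripts for most members. With the longest annotated coding transcript in their place, Fgf1 passed Fgf21 in coculture (mean 0.394 against 0.162 FPKM), and the rest of the order was as given.

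**Figure D3:**
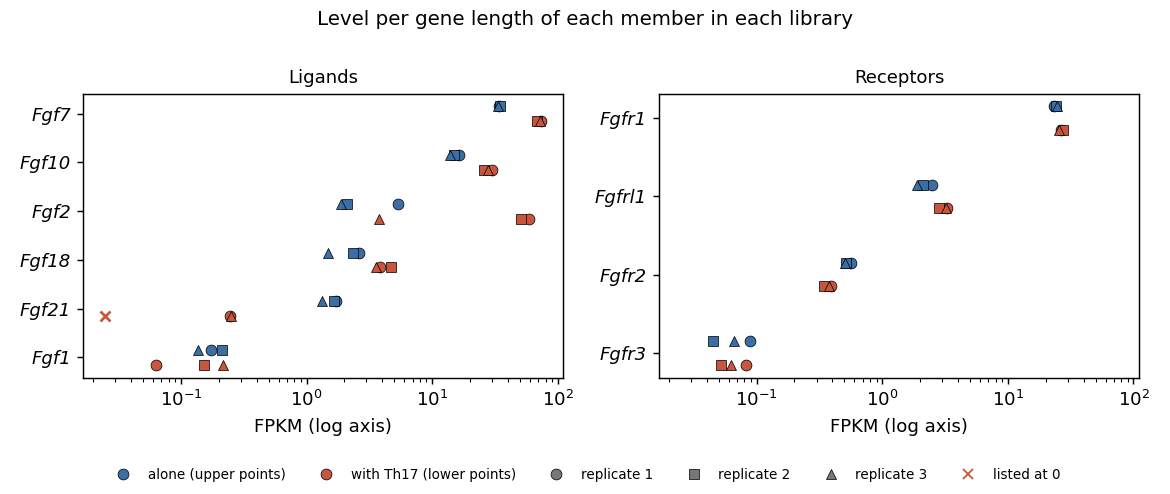
FPKM (x axis, log scale) of each ligand and receptor in every library, fibroblasts alone in blue above and with Th17 cells in red below, with 1 symbol per replicate. The cross marks Fgf21 in cocultured replicate 2, listed at 0 and drawn at the left edge. Fgfr1 at 23.3 to 27.6 FPKM and Fgf7 at 33.2 to 73.8 FPKM lead their families, and Fgf2 spreads from 3.79 to 59 FPKM within the cocultured group.

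Most other FGF genes were at or near 0. Of 19 further genes, comprising 16 genes named Fgf, Fgfr4 and the klotho co-receptors, 13 had at most 3 counts in any library and 4 were tested, with 3 lower and none higher. Fgf9, a ligand of mesenchymal growth, had 20, 28 and 20 counts alone and 2, 8 and 5 with Th17 cells, and passed the filter only through the lone libraries (log2 fold change −2.22, SE 0.439, edgeR adjusted p = 0.00367). Fgf11 and Fgf13, which stay inside the cell and are not receptor ligands, had log2 fold changes of −1.21 (SE 0.236) and −1.35 (SE 0.217; edgeR adjusted p = 0.0034 and 0.00116). Fgf5, too sparse to test, had 5, 10 and 6 counts alone and 0 in each cocultured library.

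Of 18 genes that FGF and Erk signalling is known to induce, 6 were higher, 3 lower and 9 not called, with a median log2 fold change of 0.02 (all genes tested, 0.00). Ccnd1, which encodes cyclin D1, rose from 91.6 ± 1.4 to 361 ± 16.1 CPM, a difference of 1.98 ± 0.0609 (SE) on the log2 scale (edgeR adjusted p = 4.57e-08). Etv1, an ETS transcription factor, had 9, 5 and 11 counts alone and 61, 76 and 92 with Th17 cells, and passed the filter on low counts only through the cocultured libraries. Phlda1, Dusp4 (a phosphatase of Erk) and Spry4 rose by 1.37, 0.92 and 0.78. Il17rd, also called Sef, an inhibitor of FGF receptor signalling within the interleukin-17 receptor family, rose by 0.45 (SE 0.147, edgeR adjusted p = 0.0395). The Sprouty gene Spry1 and the immediate early gene Egr1 were lower, with log2 fold changes of −1.54 (SE 0.155, edgeR adjusted p = 6.3e-05) and −0.59 (SE 0.147, edgeR adjusted p = 0.0122), as was Spry3 at −0.48. The 9 genes not called ranged from −0.33 for Dusp5 to 0.16 for Spred3. Among them Dusp6 had −0.01, Etv5 −0.02, Etv4 −0.11 and Spry2 −0.03. In cocultured replicate 3, where Fgf2 was low, the 18 genes differed from cocultured replicates 1 and 2 by −0.49 to 0.42 on the log2 scale, with a median of −0.10.

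Transcripts of the signalling cascade covered a narrow range. Of 18 adaptor and Ras-Erk genes, 3 were higher, 2 lower and 13 not called, between −0.48 and 0.39 on the log2 scale, and none passed a fold change of 2. The higher genes were Plcg1 (0.39), which encodes phospholipase C gamma, the docking adaptor Frs2 (0.28) and the ubiquitin ligase Cbl (0.25). The lower genes were Nras (−0.48) and Map2k1 (−0.25), which encodes Mek1. Each of these 5 genes had an edgeR adjusted p between 0.00621 and 0.0403.

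Transcripts of proteins that hold or modify FGFs at the cell surface differed in both directions. Of 18 binding proteins and heparan sulfate genes, 16 were tested, with 10 lower, 2 higher and 4 not called, and their median log2 fold change was −0.48 (all genes tested, 0.00). All 4 syndecans, the heparan sulfate carriers of the cell membrane, were lower. Sdc4 fell from 270 ± 11.7 to 108 ± 8.06 CPM, a difference of −1.32 ± 0.0722 (SE) on the log2 scale (edgeR adjusted p = 1.11e-06), and Sdc3, Sdc2 and Sdc1 had log2 fold changes of −0.77, −0.61 and −0.54. Flrt2, a membrane protein that binds FGF receptors, had −1.65 (SE 0.0854, edgeR adjusted p = 7.9e-07). The sulfatases Sulf1 and Sulf2, which remove sulfate groups that FGFs need, had values of −0.36 and −0.81, and Hs6st1, which adds such groups, −0.59. Hspg2, which encodes perlecan, and Ptx3, a soluble binder of Fgf2, were lower at −0.43 and −0.54. Fgfbp3, a secreted FGF carrier, rose by 1.19 (SE 0.188, edgeR adjusted p = 0.00104), and the matrix protein gene Thbs1, the most abundant of the list, rose by 0.53, from 14799 ± 168 to 21429 ± 1713 CPM.

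**Figure D4:**
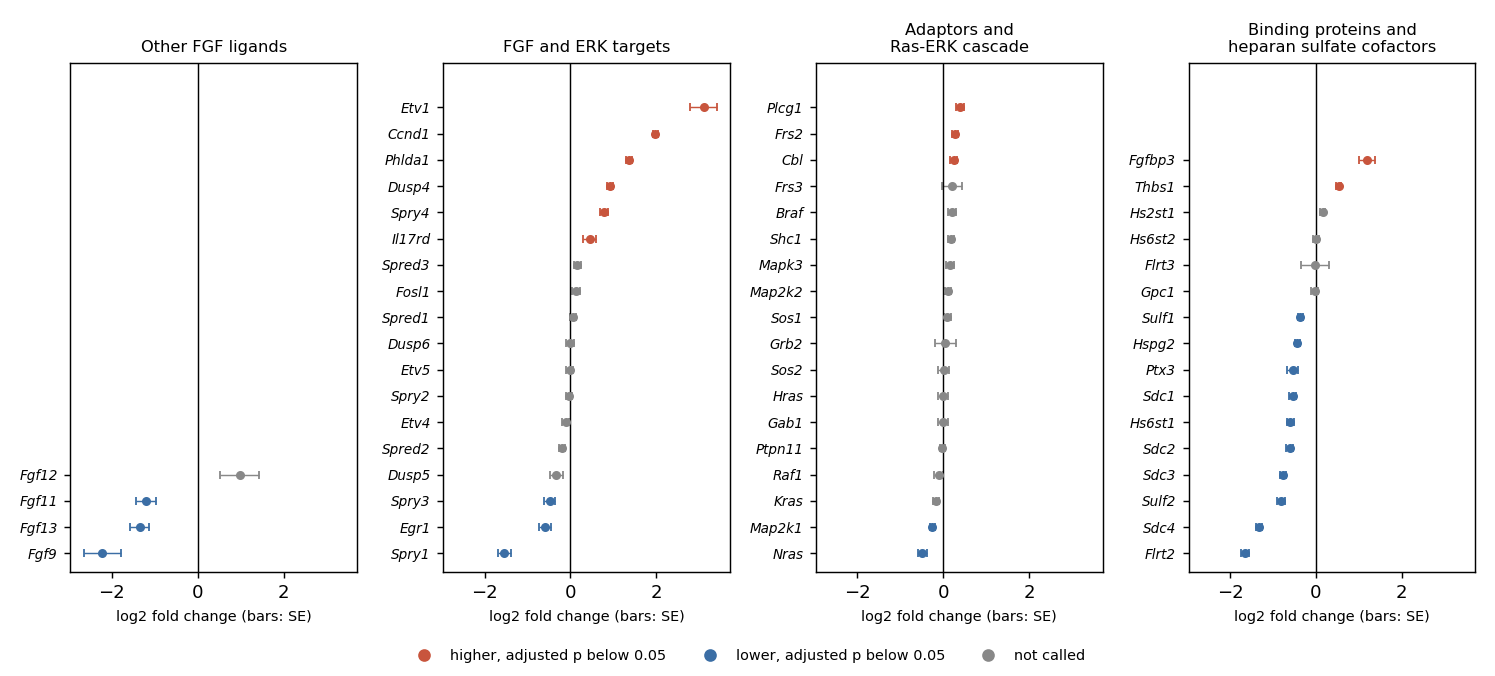
Log2 fold change, with Th17 cells minus alone (x axis, SE as bars), of every tested gene of 4 pathway lists; red and blue mark genes higher or lower at an adjusted p below 0.05 and grey the others. Of the binding proteins and heparan sulfate genes 10 of 16 fell, whereas the adaptors and the Ras-Erk cascade stayed between −0.48 and 0.39.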

How the data were processed

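RNA from 6 libraries, 3 of fibroblasts alone and 3 with Th17 cells, was sequenced on an Illumina NovaSeq. Per the study's methods, reads were filtered with Seqtk, aligned with Hisat2 (2.0.4) and counted per gene with StringTie (1.3.3b). The authors deposited raw fragment counts and FPKM for each gene and library, and both units are used as deposited. The submitters' processing notes name mm10, and 34267 gene identifiers occur in GENCODE M21 (GRCm38), of which 99.9% overlap their annotated position. Samples were grouped by title and columns assigned by description.

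Tests of the counts used edgeR 4.0.16 under R 4.3.3 (filterByExpr, minimum count 10; TMM; glmQLFit and glmQLFTest; Benjamini-Hochberg over all 13088 genes tested; called at an adjusted p below 0.05). The SE is the log2 fold change divided by the square root of F. CPM used TMM library sizes. Where a symbol occurred on several rows, the row with most counts was used. Intervals and floors cover counting error only. The members and lists were chosen with earlier results of these data known. Genes named are the members, called members of the pathway lists, the 3 nearest profiles per called member (mean of at least 100 counts) and Nudt6. Fgf2os, Ctbp2, Fgf5, Klb, Gm16263 and uncalled list genes were chosen after their values were seen. Motifs were also chosen then.

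Alternatives were DESeq2 1.42.0, RLE, library size only, upper quartile, no filter, at least 10 counts in every library, limma 3.58.1 on log2(FPKM + 1), leaving out each library, a replicate block and, added later, robust estimation. On simulated counts for 13088 genes with 200 changed, edgeR recovered 97.5% with 6 unchanged genes called. That rate is for the 200 genes as a whole. Recovery at the fold changes of Fgf18, Fgfr2 and Fgfrl1, or at the spread of Fgf2, was not tested. Protein sequences were not used here. Beyond the 18 cascade genes listed, a further gene of that pathway is not reported here.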

Additional observations from a re-analysis of the deposited data

How the results depend on the processing

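Fgf7 and Fgf10 kept their direction and call at an adjusted p below 0.05 under all 15 alternatives. Fgf21 was called in the 14 that tested it, which says little, since it passed the filter only through the lone libraries. With at least 10 counts in every library, Fgf1, Fgf21 and Fgfr3 were not tested, and 1 member was lower. The lower members also numbered 1 with DESeq2. With a fold change above 2 required as well, 2 members were higher and 1 lower, feedback targets numbered 3 higher and 1 lower, adaptor and cascade genes 0 and 0, and binding proteins and heparan sulfate genes 1 and 2. The feedback targets called higher numbered 5 with DESeq2 and 7 with library size only, against 6 in the main fit. When each library was left out, 3 to 5 members were higher and 1 to 2 lower. Feedback targets then numbered 5 to 6 higher and 2 to 4 lower. In those fits log2 fold changes were −0.75 to 0.02 for Fgf1, which changed sign without cocultured replicate 1, −0.29 to 0.19 for Fgfr3, which changed sign without lone replicate 1 or cocultured replicate 2, 3.07 to 4.18 for Fgf2, 0.63 to 1.01 for Fgf18, −0.62 to −0.52 for Fgfr2 and 0.37 to 0.56 for Fgfrl1. Robust estimation left Fgf2 at 3.54 with an adjusted p of 0.0977, where Fgf2 over its 15 alternatives ranged from 0.00012 to 0.0977. DESeq2 gave −0.57 for Fgfr2 (adjusted p = 0.0525). Limma on log2(FPKM + 1) gave 2.68 for Fgf2, −1.14 for Fgf21 and −0.16 for Fgfr2, all still called. The cause of these changes was not tested. Scaling by library size only moved the median of all genes to 0.07 and the share of lower calls from 53.8% to 43.9%, and under limma on log2(FPKM + 1) that share was 44.2%. Same-numbered libraries did not deviate together from their group means (correlations across genes 0.0157, −0.0256 and −0.0036). Such correlations cannot tell if same-numbered libraries were prepared together. With the replicate block 5 members were higher and 2 lower, as without it, and 4513 genes were called in place of 4856. Fgf1, Fgf18, Fgf21 and Fgfr3 had at most 70 counts in any library, and the part of depth in their spread was not tested.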

Other observations

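Without cocultured replicate 3, the library farthest from the others of its group, 5088 genes were called, against 4856 with all libraries and 4328 and 4353 without cocultured replicates 1 and 2. Among the 9740 tested genes with a mean of at least 100 counts, cocultured replicate 3 lay below the mean of replicates 1 and 2 by more than 2 on the log2 scale in 5 genes, Fgf2 included, and above it by more than 2 in 6 genes. Among the cascade genes, Grb2, the adaptor that links Frs2 to Ras, was low in replicate 2 of both groups, with 1000, 607 and 971 counts alone and 1239, 637 and 954 with Th17 cells. These patterns and Grb2 were chosen after the values had been seen.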
